A study of Homo sapiens with 18 samples.

Results

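The CEP genes were measured in K562 cells, a human leukaemia cell line, after treatment with heteronemin, TNFalpha or both. A gene was a member when its symbol in the array's probe annotation started with CEP and a digit, which gave 37 of the 18334 genes tested, on 78 array features. Of these, 35 are protein-coding, CEP192P1 is a pseudogene of CEP192, and CEP83-DT is a non-coding transcript that starts beside CEP83. No ratio decided whether a gene was a member, but the family was taken up with results of these data known, in all the comparisons below. Its counts and medians are therefore a description, set beside the same values over all genes, and nothing about the family is read from them.

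The 18 two-colour arrays held 3 direct comparisons, each with 3 biological replicates of 2 dye-exchanged arrays, so n = 3. Cells received heteronemin, a sesterterpenoid of marine sponges, at 6 µM or its DMSO vehicle at 0 h, then the cytokine TNFalpha at 10 ng/mL or water at 2 h, and all 4 states were collected at 6 h. TNFalpha-treated cells (DMSO, then TNFalpha) and heteronemin-treated cells (heteronemin, then water) were each set against untreated cells (DMSO, then water), and cells given both agents, called cotreated, were set against TNFalpha-treated cells. The TNFalpha comparison thus shares the untreated state with the second comparison and the TNFalpha-treated state with the third, and possibly the same RNA. Each value is a log2 ratio of treated over control. On all 6 arrays of a comparison, NFKBIA, a target of NF-kappaB, was at 2.32 to 3.77 under TNFalpha, and DDIT3, a stress gene, at 2.07 to 2.87 under heteronemin and 2.13 to 2.71 in cotreated cells. Ratios carry no level, so neither the abundance of a CEP transcript nor markers of the line can be read from them. In bulk RNA, a change in the share of cells in mitosis and a change of transcript per cell cannot be told apart.

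The centrosome, the main microtubule organising centre of animal cells, is a pair of centrioles in a pericentriolar matrix. Centrioles are copied once per cell cycle, and the older one carries appendages that anchor microtubules and can dock a primary cilium. Proteins named CEP for their centrosomal location act in centriole copying, in appendages, in the linker between centrioles, in centriolar satellites and cilia, and, for CEP55, at the midbody in cytokinesis.

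Promoter windows of 300 bases, from 250 before to 50 after the start, were found in RefSeq (GRCh38.p14) for 32 of the 37 members. Of the 6 members that rose in cotreated cells, the 3 with a TTTGAA motif and 1 without are printed. CEP20, the 1 member that fell, under heteronemin alone, is printed with them. Capitals show 2 motifs of cell cycle promoters: TTTGAA, the core of the cell cycle homology region, and CCAAT, the NF-Y box, which reads ATTGG on the other strand. CEP295 is at chr11:93661432-93661731, CEP57 at chr11:95789764-95790063, CEP72 at chr5:612090-612389 and CEP350 at chr1:179954560-179954859, all on the plus strand, and CEP20 is at chr16:15888554-15888853 on the minus strand.
CEP295: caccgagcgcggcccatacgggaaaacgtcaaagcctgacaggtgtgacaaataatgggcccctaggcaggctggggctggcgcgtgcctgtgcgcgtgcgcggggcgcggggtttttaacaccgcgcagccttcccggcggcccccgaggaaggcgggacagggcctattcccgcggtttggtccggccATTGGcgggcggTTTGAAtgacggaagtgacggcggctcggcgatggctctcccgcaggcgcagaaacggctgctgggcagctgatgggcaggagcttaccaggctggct
CEP57: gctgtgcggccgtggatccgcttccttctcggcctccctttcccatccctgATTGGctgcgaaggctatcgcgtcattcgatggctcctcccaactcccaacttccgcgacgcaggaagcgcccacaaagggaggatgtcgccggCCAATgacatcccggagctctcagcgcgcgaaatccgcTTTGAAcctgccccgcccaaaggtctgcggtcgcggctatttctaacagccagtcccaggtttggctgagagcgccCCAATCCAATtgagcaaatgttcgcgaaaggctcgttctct
CEP72: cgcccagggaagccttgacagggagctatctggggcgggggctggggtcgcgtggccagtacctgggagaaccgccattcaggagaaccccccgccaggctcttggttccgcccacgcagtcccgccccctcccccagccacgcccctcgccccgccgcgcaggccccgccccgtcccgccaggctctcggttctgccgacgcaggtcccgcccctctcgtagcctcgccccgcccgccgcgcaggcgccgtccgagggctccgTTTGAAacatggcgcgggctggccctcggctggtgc
CEP350: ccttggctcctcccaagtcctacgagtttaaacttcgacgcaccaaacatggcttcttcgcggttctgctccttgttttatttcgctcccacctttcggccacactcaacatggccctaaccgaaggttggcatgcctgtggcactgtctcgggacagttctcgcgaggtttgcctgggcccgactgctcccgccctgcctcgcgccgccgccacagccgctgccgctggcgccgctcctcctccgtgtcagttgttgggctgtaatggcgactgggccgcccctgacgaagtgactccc
CEP20: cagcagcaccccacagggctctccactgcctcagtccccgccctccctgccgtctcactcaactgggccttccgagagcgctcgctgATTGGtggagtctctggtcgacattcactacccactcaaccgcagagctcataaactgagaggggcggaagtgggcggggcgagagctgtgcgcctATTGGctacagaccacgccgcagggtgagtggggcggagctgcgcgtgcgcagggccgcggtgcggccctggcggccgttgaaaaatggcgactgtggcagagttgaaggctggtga

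Counted from the start, TTTGAA began at −48 in CEP295, after an ATTGG at −60. In CEP57 it began at −67, with ATTGG at −199 and CCAAT at −105, 10 and 15. In CEP72 it lay past the start, at 15. The CEP20 window held ATTGG at −163 and −67 and no TTTGAA. The other 3 members that rose had no TTTGAA either: CEP95 held CCAAT at −50, and CEP350 and CEP57L1 held none of the motifs searched. Over the first window of 31 protein-coding members, TTTGAA was present on either strand in 12 (38.7%), against 12.1% of 15843 protein-coding genes. CCAAT was present in 17 (54.8%), against 36.4%. The E2F motif TTTCCCGC was present in 2, CEP192 and CEP63 (6.45% against 2.18%). The E2F motif TTTGGCGC, the ATF4 and C/EBP composite TGATGNAA and the cyclic AMP response element TGACGTCA were in 0 members' windows, against 0.890%, 2.53% and 2.59% of all. These are matches of letters, not bound sites, and TTTGAA was also present in members that passed no test, such as CEP55 and CEP89.

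In cotreated against TNFalpha-treated cells, which show the effect of heteronemin in the presence of the cytokine, 6 of the 37 CEP genes rose and 0 fell. The 6 were CEP295, CEP72, CEP350, CEP95, CEP57L1 and CEP57, with mean log2 ratios of 0.20 to 0.36, or 14.9% to 28.3% above the control. Genes were called at an adjusted p under 0.05 in a limma fit over all genes, by which 3.39% of all genes rose, 3.15% fell and 6.55% were called. At an unadjusted p under 0.05 there were 17 members higher and 2 lower, where 21.2% of all 18334 genes passed in either direction (1820 higher and 2063 lower). In all 3 replicates 24 members were above 0, against 18.7% of all genes, and 3 were below, against 19.6%. The members' median was 0.11 (0.089, 0.10 and 0.074 in replicates 1 to 3) beside 0.0081 over all genes, and 29 means were above 0, against 52.9%.

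**Figure D1:**
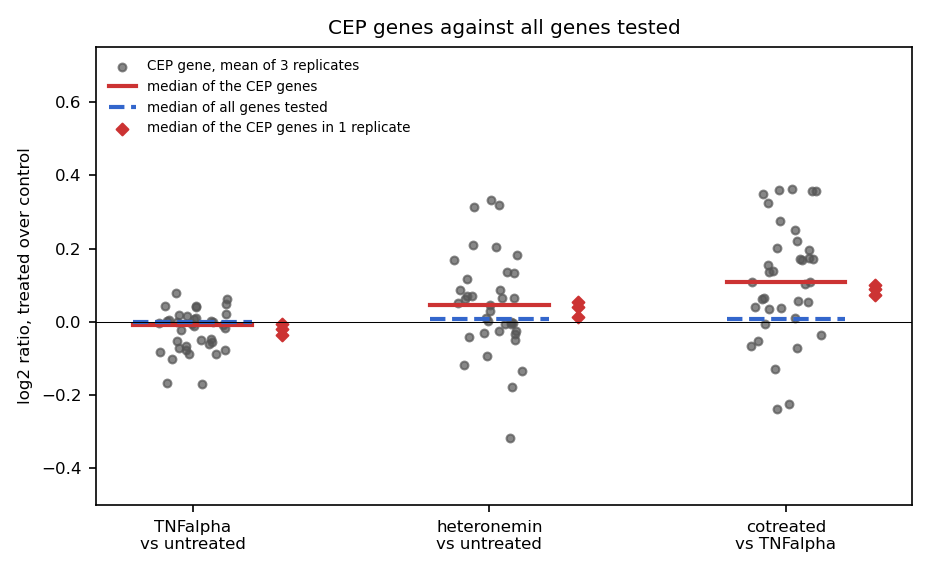
Mean log2 ratio (vertical axis, treated over control) of each of the 37 CEP genes, as grey points, in the 3 comparisons. Red lines are the medians over the CEP genes, −0.0084, 0.045 and 0.11 from left to right, red diamonds are those medians in each of 3 replicates, and dashed blue lines are medians over all 18334 genes.

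The 3 comparisons shared 1 estimate of the spread in this fit. When cotreated against TNFalpha-treated cells was fitted by itself, 0 members were called (0% of all genes). Without replicate 2 or replicate 3 of all comparisons 0 members were called (0.0109% and 0.0436% of all genes), and 11 were called without replicate 1 (18.5%). Replicate numbers paired the heteronemin comparisons, and with the replicate as a block in those alone, 13 members rose and 1 fell (20.3% of all genes called).

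Among the 11 members of centriole duplication and elongation, 10 means were above 0 in cotreated cells, with a median of 0.20 (0.16, 0.14 and 0.12) over replicates 1 to 3, and 2 rose. CEP295, needed for new centrioles to become centrosomes, gave 0.49, 0.25 and 0.30 in replicates 1 to 3. All replicates and all 6 arrays were above 0, with replicate 1 highest. It rose by 0.35 ± 0.13 (SD, n = 3; limma adjusted p = 0.00970). CEP57, a scaffold protein of the inner pericentriolar material, gave 0.16, 0.37 and 0.21, with replicate 2 highest and all 6 arrays above 0. It rose by 0.25 ± 0.11 (limma adjusted p = 0.0364), a call lost without replicate 2 or 3 of this comparison (adjusted p = 0.191 and 0.0984).

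The other 9 members of this role had means from −0.22 to 0.36 and did not pass. CEP120, CEP152, CEP44, CEP131 and CEP164 are named here for their uneven replicates, after their values were seen. CEP120, which supports centriole elongation, gave 0.57, 0.40 and 0.12, with a mean of 0.36 ± 0.23 as high as any called member (limma adjusted p = 0.0604). CEP152, which recruits the duplication kinase PLK4, gave 0.49, 0.080 and 0.088, high in replicate 1 alone. CEP44, a centriolar protein, gave 0.0089, 0.17 and 0.64, high in replicate 3. CEP85, which limits the kinase NEK2, was the lowest of the role at −0.22 ± 0.21 (limma adjusted p = 0.172), with replicates at −0.47, −0.10 and −0.11.

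Among the 7 members of appendages and anchoring, CEP350, a large protein that anchors microtubules, gave 0.43, 0.28 and 0.36 in cotreated cells. The replicate means lay close together, though 1 of the 6 arrays was below 0. Replicate 3 is the mean of arrays at 0.78 and −0.051, a gap that the SD over replicates does not show. CEP350 rose by 0.36 ± 0.076 (limma adjusted p = 0.0184), a call lost without replicate 1, 2 or 3 of this comparison (adjusted p = 0.0650, 0.0718 and 0.0780). The other 6 were at −0.037 to 0.11 and did not pass. CEP164, which starts cilium formation at the distal appendages, gave 0.31, 0.00074 and −0.0050, high in replicate 1 alone. The linker proteins CEP250 and CEP68 and CEP85L, a paralog of CEP85, were at −0.071 to 0.14, and none passed.

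Of the 11 members of satellites and cilia, 9 means were above 0 in cotreated cells, with a median of 0.11 (0.13, 0.095 and 0.039) over replicates 1 to 3. CEP72, a satellite protein, gave 0.39, 0.50 and 0.19, all 6 arrays above 0, and rose by 0.36 ± 0.16 (limma adjusted p = 0.0145). Without replicate 2 of this comparison it was not called (adjusted p = 0.10). CEP131, another satellite protein, had a mean of the same size, 0.36 ± 0.34, but gave 0.76, 0.16 and 0.16 and did not pass (limma adjusted p = 0.172). CEP20, which acts in cilium formation, was the lowest at −0.24 ± 0.11, below 0 on all 6 arrays, and did not pass (limma adjusted p = 0.0765). CEP55, which recruits the abscission machinery, gave 0.068, −0.15 and −0.073, on both sides of 0.

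Of the 4 members outside these roles, 2 rose in cotreated cells. CEP95, a centrosomal protein of little known function, gave 0.16, 0.45 and 0.37, lowest in replicate 1 and with 1 of 6 arrays just below 0. It rose by 0.33 ± 0.15 (limma adjusted p = 0.0250), a call lost without replicate 2 or 3 of this comparison (adjusted p = 0.150 and 0.107). CEP57L1, a paralog of CEP57, gave 0.22, 0.26 and 0.13, above 0 on all 6 arrays. It rose by 0.20 ± 0.065 (limma adjusted p = 0.0324), a call lost without replicate 1, 2 or 3 of this comparison (adjusted p = 0.0840, 0.175 and 0.0619). CEP192P1 was at 0.063, which is uncertain since a near copy of CEP192 can share its signal, and did not pass. CEP83-DT did not pass either and gave −0.44, −0.026 and 0.081, with 1 array of replicate 1 at −1.08.

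**Figure D2:**
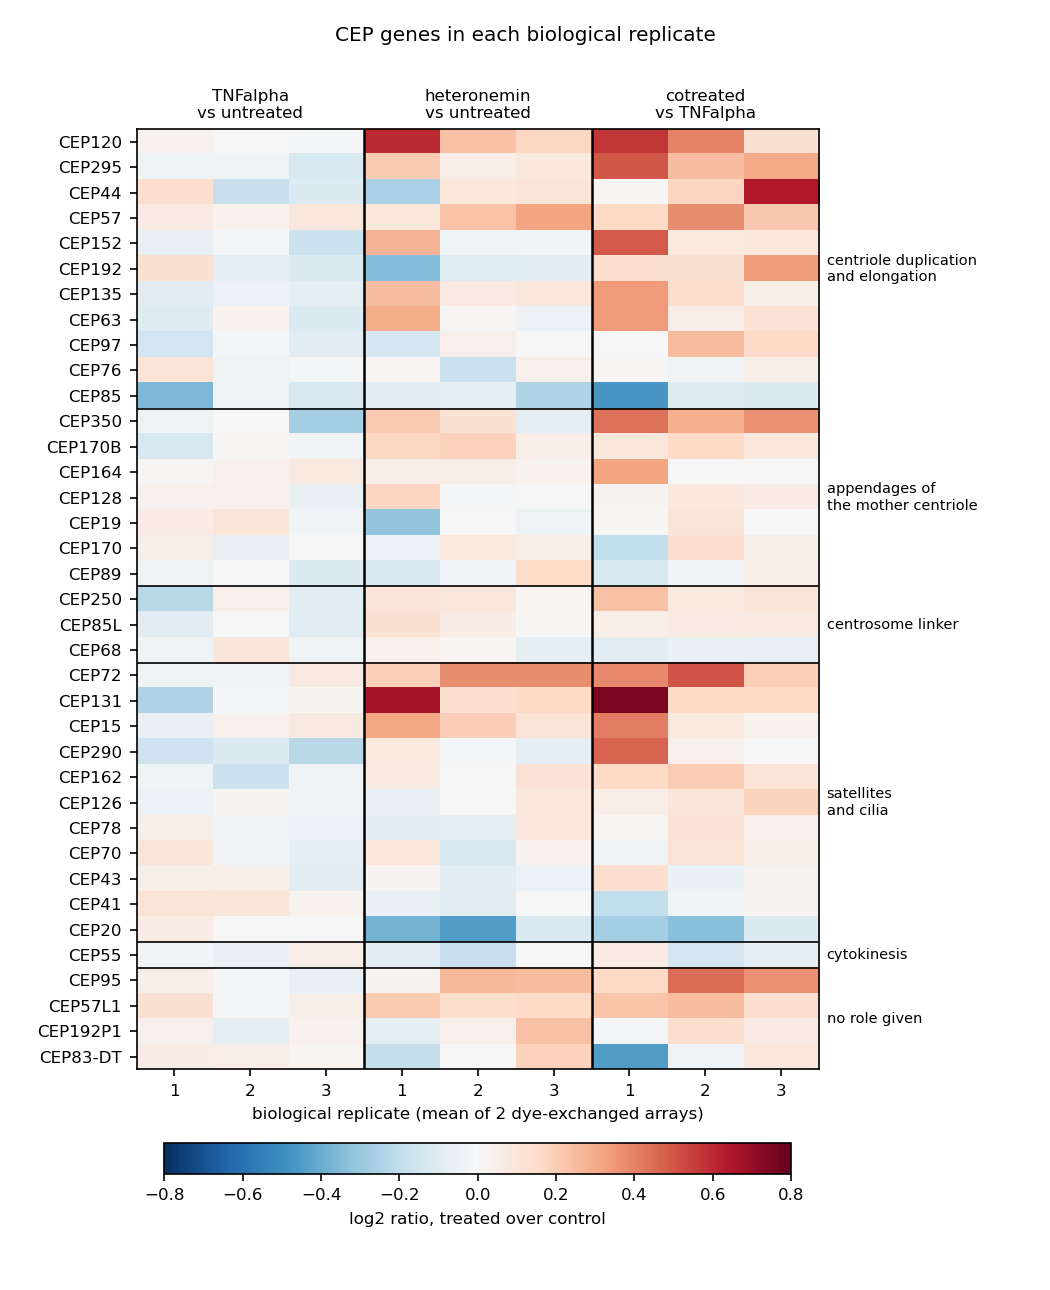
Log2 ratios (colour, treated over control) of the 37 CEP genes in rows, grouped by role and ordered by the cotreated mean, in the 3 biological replicates of each comparison. The TNFalpha columns are pale, the cotreated columns mostly red, and replicate 1 holds several of the strongest colours, such as CEP131 at 0.76 and CEP85 at −0.47.

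In heteronemin-treated against untreated cells, which show the compound without the cytokine, CEP72 rose and CEP20 fell, 2 of 37 members, where 4.87% of all genes were called, 2.29% higher and 2.58% lower. CEP72 gave 0.19, 0.37 and 0.37, lowest in replicate 1 and above 0 on all 6 arrays. It rose by 0.31 ± 0.10 (limma adjusted p = 0.0298), or 24.2% above untreated cells. CEP20 gave −0.38, −0.45 and −0.12, nearest 0 in replicate 3 and below 0 on all 6 arrays. It fell by 0.32 ± 0.17 on the log2 scale (limma adjusted p = 0.0339). CEP57L1 had the next smallest p, gave 0.21, 0.14 and 0.15 and did not pass (limma adjusted p = 0.0742).

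CEP72 was not called without replicate 1, 2 or 3 of this comparison (adjusted p = 0.0501, 0.185 and 0.135), nor was CEP20 without replicate 1 or 2 (adjusted p = 0.160 and 0.212). Fitted alone, 0 members were called (0% of all genes). Without replicate 1 of all comparisons 5 were called (13.9%), and without replicate 2 or 3 0 (0.0109% and 0.109%). With the replicate as a block in the heteronemin comparisons alone, 6 members rose and 1 fell (17.2% of all genes).

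The members' median was 0.045 under heteronemin alone (0.055, 0.014 and 0.041 in replicates 1 to 3) beside 0.0083 over all genes, and 22 of 37 means were above 0, against 53.3%. At an unadjusted p under 0.05 there were 8 members higher and 2 lower, against 18.2% of all 18334 genes in either direction (1558 higher and 1775 lower). In all 3 replicates 14 were above 0, against 20.6%, and 5 below, against 19.2%. The 5 genes called in cotreated cells alone were at 0.088 to 0.21 here, CEP57 with 0.083, 0.23 and 0.32 and CEP95 with 0.022, 0.27 and 0.25, both lowest in replicate 1. CEP295 gave 0.21, 0.051 and 0.086 and CEP350 0.21, 0.12 and −0.071, both highest in replicate 1. CEP120 gave 0.60, 0.24 and 0.16 and CEP131 0.66, 0.14 and 0.16, again high in replicate 1, and neither passed (limma adjusted p = 0.0976 and 0.262).

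**Figure D3:**
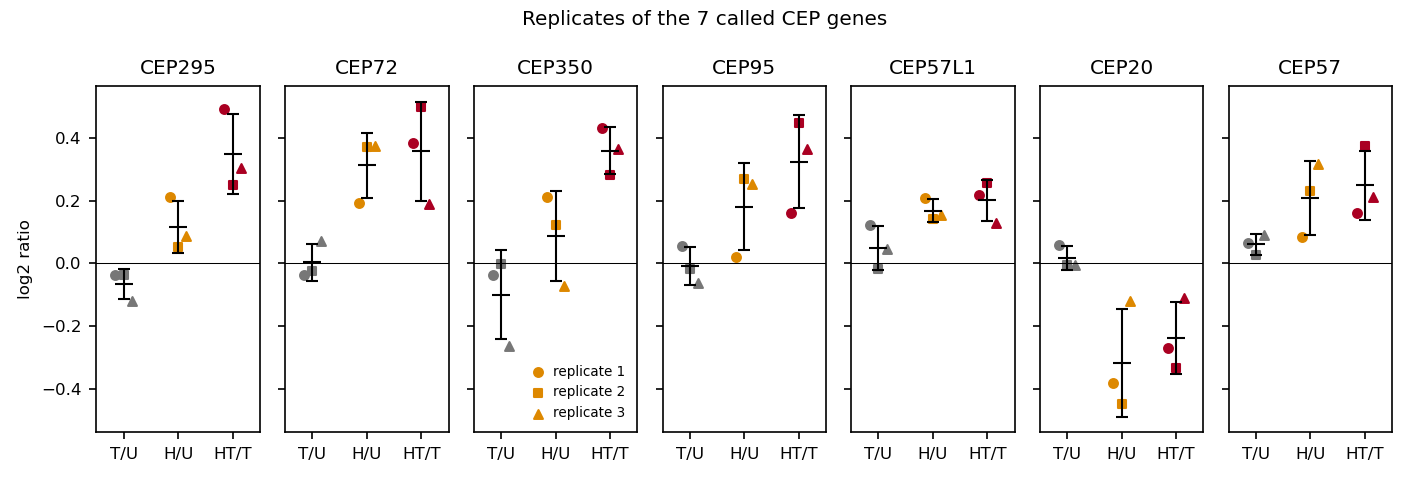
Log2 ratios (vertical axis, treated over control) of the 7 CEP genes called in a comparison, 1 panel per gene and 1 symbol shape per biological replicate. T/U is TNFalpha against untreated, H/U heteronemin against untreated and HT/T cotreated against TNFalpha-treated cells; bars are the mean and SD of 3 replicates. CEP20 lies below 0 in all replicates of both heteronemin comparisons, and CEP72 above 0.

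The heteronemin comparisons share no RNA on any array, but same-numbered replicates deviated together over all genes. CEP72 was called in both, as 1 of 2 called members under heteronemin alone and 1 of 6 in cotreated cells, where 3.74% of all genes were called in both. Above 0 in all replicates of both were 13 members, of 14 and 24 in each, against 9.43% of all genes. CEP20 and CEP85 were below 0 in all replicates of both, against 10.7%. On single arrays CEP20 was below 0 on all 6 of each comparison, but CEP85 on 3 of 6 under heteronemin alone and 4 of 6 in cotreated cells. The CEP85 arrays split by dye orientation, at −0.60, −0.25 and −0.60 against 0.42, 0.098 and 0.12 under heteronemin alone. In cotreated cells they were at −0.85, −0.38 and −0.40 against −0.078, 0.18 and 0.18.

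Whether TNFalpha altered the heteronemin effect was tested as the difference of the comparisons, cotreated minus heteronemin alone. Each SD of a difference is over the differences of same-numbered replicates. The intervals and p values come from the main fit, which had no replicate block and so ignored this pairing. The SD and the interval of a gene therefore describe different spreads. No CEP gene passed in limma (0 of 37, and 0% of all genes). At an unadjusted p under 0.05, 3 members were higher and 0 lower, against 2.59% of all 18334 genes (248 higher and 227 lower). The 3 were CEP192, CEP295 and CEP350. CEP192, a scaffold that recruits PLK4 and pericentriolar material, had differences of 0.47, 0.22 and 0.43, all above 0, with a mean of 0.37 ± 0.14 (95% interval 0.14 to 0.60; limma adjusted p = 1.00). CEP295 had differences of 0.28, 0.20 and 0.22, close together, with a mean of 0.23 ± 0.044 (95% interval 0.051 to 0.41; adjusted p = 1.00). CEP350 had 0.22, 0.16 and 0.44, highest in replicate 3, with a mean of 0.27 ± 0.15 (95% interval 0.050 to 0.49; adjusted p = 1.00).

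For CEP72 the difference was 0.045 ± 0.20, with a 95% interval of −0.16 to 0.25, and for CEP20 0.079 ± 0.059, with one of −0.14 to 0.30. The median difference over the members was 0.045 (0.10, 0.093 and 0.015 in replicates 1 to 3) beside 0.0015 over all genes, and 28 of 37 were above 0, against 50.7%. In all 3 replicates 14 were above 0 and 2 below, against 15.5% and 13.4% of all genes.

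**Figure D4:**
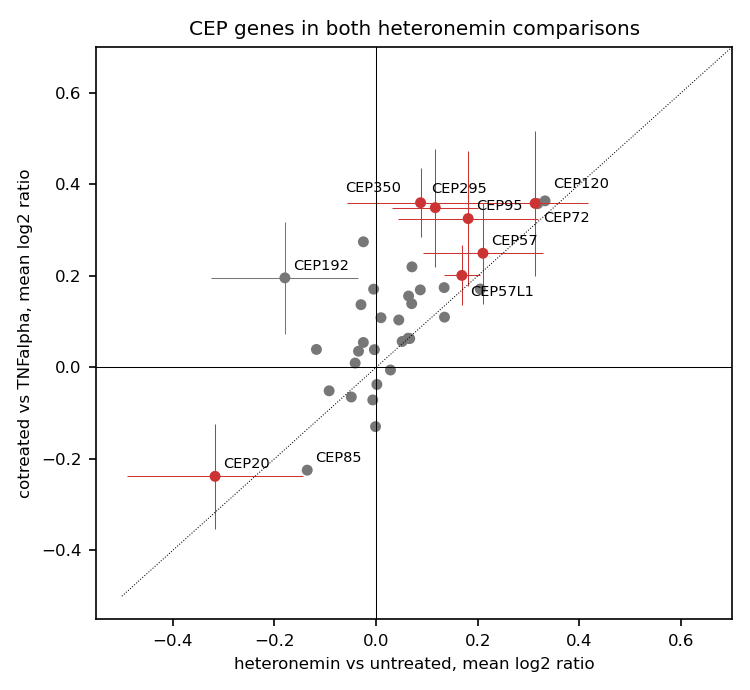
Mean log2 ratio of each of the 37 CEP genes under heteronemin against untreated (horizontal axis) and in cotreated against TNFalpha-treated cells (vertical axis). Red points are the 7 called genes, lines on these and CEP192 are the SD of 3 replicates, and the dotted line marks equal values, with 28 points above it.

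TNFalpha-treated against untreated cells show the cytokine alone after 4 h, and no CEP gene passed (0 of 37 in limma, 0 at an unadjusted p under 0.05, against 0% and 1.72% of all genes). The smallest limma adjusted p over all genes was 0.0567, so NFKBIA was not called either. All CEP means lay between −0.17 and 0.079, with a median of −0.0084 (−0.020, −0.0067 and −0.037 in replicates 1 to 3). The median over all genes was −0.00053, and 16 CEP means were above 0, against 49.5%. The smallest p values were those of CEP85, at −0.36, −0.029 and −0.13, of CEP290, a protein of the ciliary transition zone, at −0.17, −0.11 and −0.22, and of CEP162, a microtubule-binding ciliary protein, at −0.032, −0.17 and −0.028. Each was below 0 in all 3 replicates, with means of −0.17 ± 0.17, −0.17 ± 0.058 and −0.077 ± 0.081 (limma adjusted p = 1.00 each). On single arrays, CEP85 was below 0 on 4 of 6, CEP290 on 5 and CEP162 on 3. The sign of CEP162 followed the dye, at 0.098, 0.036 and 0.12 in 1 orientation and −0.16, −0.38 and −0.17 in the other. CEP85 also differed by dye, at −0.53, −0.19 and −0.48 in the first orientation and −0.18, 0.14 and 0.23 in the other. In all 3 replicates 4 members were above 0 and 10 below, against 13.3% and 12.4% of all genes.

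Several features measured 25 of the members and 1 feature the other 12. The features of a gene had means of 1 sign in 17 of the 25 in cotreated cells and in 12 under heteronemin alone. Both CEP295 features carry the same transcript accession, yet one gave 0.73, 0.52 and 0.56 in cotreated cells and the other 0.25, −0.025 and 0.047. One CEP57 feature gave 0.37, 0.36 and 0.40 under heteronemin alone, close together, and passed when features were tested singly (limma adjusted p = 0.00526), while the other gave −0.21, 0.10 and 0.23. The features of CEP57L1 lay together, with cotreated means of 0.21 and 0.20, as did those of CEP120, at 0.41, 0.38 and 0.30. CEP20 had features at −0.39 and −0.24 under heteronemin alone. CEP192 had one at −0.0088 under heteronemin alone and 0.35 in cotreated cells, and another at −0.35 and 0.040. CEP72 and CEP350 had 1 feature each.

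**Figure D5:**
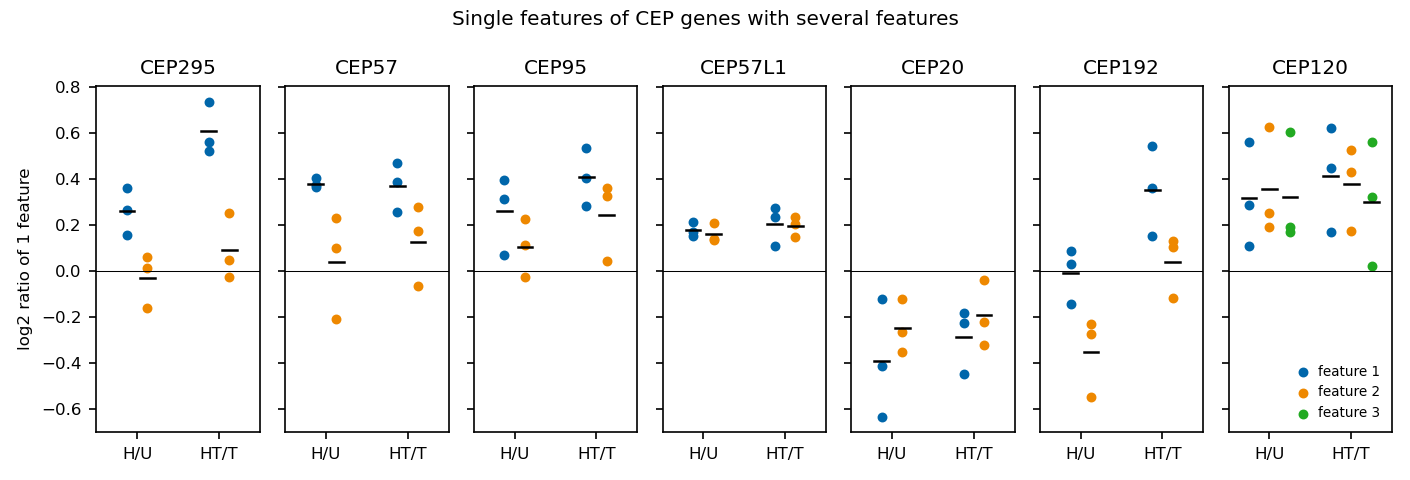
Log2 ratios of single array features (vertical axis) for 7 CEP genes with 2 or 3 features, under heteronemin against untreated (H/U) and in cotreated against TNFalpha-treated cells (HT/T). Points are biological replicates, bars the mean of 3, and colours the features of a gene; the CEP295 features separate, at 0.61 and 0.092 in HT/T, while those of CEP57L1 overlap.

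Other centrosomal and mitotic genes were described in 6 lists drawn up by role, where 4.87% of all genes were called under heteronemin alone and 6.55% in cotreated cells. List medians are given with those of replicates 1 to 3 in parentheses. Of 15 centriole assembly partners, 3 rose under heteronemin alone, and 3 rose and 1 fell in cotreated cells, with medians of 0.039 (0.066, 0.14 and 0.10) and 0.084 (−0.12, 0.14 and 0.13). POC5, a centrin-binding protein of the centriole, gave 0.53, 0.69 and 0.53 under heteronemin alone and 0.61, 0.90 and 0.78 in cotreated cells, rises of 0.58 ± 0.10 and 0.76 ± 0.15 (limma adjusted p = 0.00362 and 0.00113) with means above those of all 37 CEP genes. SASS6, the cartwheel protein of new centrioles, rose by 0.35 ± 0.15 and 0.30 ± 0.091, and SPICE1, a partner of CEP120, by 0.23 ± 0.0074 and 0.25 ± 0.10. CETN2, a centrin, fell by 0.24 ± 0.040 in cotreated cells (limma adjusted p = 0.0167).

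Of 13 genes of the pericentriolar material and gamma-tubulin ring, 0 were called under heteronemin alone, where MZT2B had the smallest p at −0.12, and 2 rose in cotreated cells, with medians of 0.079 (0.18, 0.0043 and −0.0060) and −0.0021 (−0.055, 0.037 and 0.039). They were the scaffolds CDK5RAP2, at 0.32 ± 0.16, and AKAP9, at 0.28 ± 0.13. Of 14 appendage and linker genes, TCHP, a keratin-binding protein of the mother centriole, rose by 0.27 ± 0.11 under heteronemin alone and 0 were called in cotreated cells, where TCHP had the smallest p at 0.17, with medians of 0.078 (0.18, 0.048 and 0.033) and 0.12 (0.18, 0.075 and 0.012). Of 15 satellite and ciliary base genes, 0 were called under heteronemin alone, where OFD1 had the smallest p at 0.35, and 2 rose in cotreated cells, OFD1, a satellite protein that limits centriole length, at 0.44 ± 0.22, and TBC1D31 at 0.28 ± 0.10, with medians of 0.022 (−0.044, 0.047 and 0.077) and 0.13 (0.071, 0.13 and 0.15).

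Of 14 mitotic kinases and spindle pole genes, 0 were called under heteronemin alone, where HMMR had the smallest p at 0.33, and 3 rose in cotreated cells, with medians of 0.10 (0.32, −0.0036 and −0.011) and 0.063 (0.22, 0.066 and 0.067). They were HMMR, a spindle assembly factor, at 0.47 ± 0.19, the checkpoint kinase BUB1 at 0.29 ± 0.10 and the checkpoint kinase TTK at 0.49 ± 0.16. Of 15 cytokinesis genes 0 were called in either, with KIF23 at −0.20 under heteronemin alone and CIT at 0.36 in cotreated cells, and medians of 0.072 (0.20, −0.086 and 0.060) and 0.080 (0.14, −0.017 and 0.021). In the TNFalpha comparison and the difference, 0 genes of the 6 lists were called. The heteronemin medians of the mitotic and pericentriolar lists were well above 0 in replicate 1 alone, both medians of the cytokinesis list were highest in replicate 1 and below 0 in replicate 2, and the cotreated median of the assembly partners was below 0 in replicate 1. The part of the mitotic genes in the values of the CEP genes was not tested.

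The CEP genes were long, with a median gene length of 64.3 kb over 35 protein-coding members against 27.7 kb over 16723 protein-coding genes tested. Of 31 protein-coding members with a window, 14 (45.2%) had another gene starting on the other strand within 1000 bases, against 24.3% of protein-coding genes. The neighbours named here were chosen after their values were seen. FAM76B, 232 bases from CEP57, rose by 0.30 under heteronemin alone and 0.43 in cotreated cells (limma adjusted p = 0.0330 and 0.00659), beside CEP57 at 0.21 and 0.25. FBXO8, 244 bases from CEP44, rose by 0.55 and 0.55, beside CEP44 at −0.025 and 0.27, which did not pass. SDCCAG8, 760 bases from CEP170, rose by 0.27 and 0.28, beside CEP170, a protein of the subdistal appendages, at 0.028 and −0.0058. ANAPC13, which starts on the other strand past the start of CEP63 (at −261 bases), fell by 0.48 and 0.46, beside CEP63 at 0.087 and 0.17. SESN1, beside CEP57L1, was at −0.047 and −0.13, and DDX5, beside CEP95, at 0.073 and 0.037, and neither passed.

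Replicate 1 had the widest spread in both heteronemin comparisons, with an SD over all genes of 0.329 and 0.384, against 0.163 to 0.215 in replicates 2 and 3. Across the 37 CEP genes, which are not independent, the correlation between the dye-exchanged arrays of a replicate was −0.33 to −0.22 under TNFalpha, 0.035 to 0.40 under heteronemin alone and 0.028 to 0.31 in cotreated cells. Over all genes it was 0.033 to 0.24, 0.32 to 0.48 and 0.26 to 0.51 in that order, above the CEP value in each replicate. The median SD over replicates of a CEP gene was 0.064, 0.10 and 0.11 in the same order.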

How the data were processed

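RNA of K562 cells was hybridised on 18 two-colour arrays. The deposited values are log2 ratios made by the authors with limma, per the submitters' processing notes. Not given in the sources used here were its version, the background correction, the normalization and any scaling between arrays. Ratios were read as treated over control from the array titles, and dye-exchanged arrays had already been turned. No intensities were used, and precision is limited by how many arrays there are.

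Of 45220 features, 93 with several genes and 13795 without a gene entry were left out. The other 31332 were averaged per gene (18334 genes), then over the 2 dye-exchanged arrays of a biological replicate. The series' design text calls the replicates biological, and nothing used here says how they were grown. One limma fit (limma 3.58.1, R 4.3.3; lmFit, eBayes) over the 9 averaged values gave each comparison and the difference of the heteronemin comparisons, two-sided, with Benjamini-Hochberg adjustment over all genes. The fit was tested on simulated data.

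The members and lists were chosen with earlier results of these data known. Values are given for called members and, where fewer than 3 were called, for the 3 with the smallest p, and for up to 4 called genes of each list. Same-numbered replicates deviated together in the heteronemin comparisons (correlation 0.78, 0.63 and 0.62 over all genes). Between the TNFalpha comparison and heteronemin alone the correlation was −0.21, 0.031 and −0.095. Between the TNFalpha comparison and cotreated cells, which share the TNFalpha-treated state, it was below 0 in each replicate (−0.33, −0.22 and −0.27). The main fit had no replicate block and left these correlations out. Alternatives covered blocks, left-out replicates, fits alone, priors, weights, arrays, scaling and features.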

Additional observations from a re-analysis of the deposited data

Results flagged for a closer look

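CEP192 had opposite signs in the heteronemin comparisons. It was below 0 in all 3 replicates under heteronemin alone (−0.35, −0.10 and −0.093) and above 0 in all 3 in cotreated cells (0.13, 0.12 and 0.34), a difference of 0.37. The limma test of the difference did not pass (adjusted p = 1.00). Its mean joins 2 features with means of −0.0088 and −0.35 under heteronemin alone and 0.35 and 0.040 in cotreated cells.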

How the results depend on the processing

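In heteronemin against untreated cells and in cotreated against TNFalpha-treated cells, the CEP genes called (2 and 6 in the report) varied with the setting. Leaving out replicates gave 0 to 5 and 0 to 11: without replicate 1, 2 or 3 of all comparisons 5, 0 and 0, and 11, 0 and 0; without that replicate of the comparison alone 0, 0 and 1, and 4, 1 and 3. With a replicate block over all 3 comparisons the counts were 3 and 7, and with a replicate block over the heteronemin comparisons alone, chosen after seeing the data, 7 and 14. Fitted alone they were 0 and 0, with a trended, robust prior 0 and 1, with array weights 7 and 13, and over 18 arrays with a dye term 5 and 10. Scaled arrays gave 4 and 6, the feature with the largest ratios 4 and 7, and features tested singly 4 and 10. Tested singly, a gene was counted by its feature with the smallest p. Both feature settings thus chose features by these same values, which can by itself raise the counts. Centred arrays and the median over features gave 2 and 6, and 2 and 7. Updated symbols changed no member, so their counts of 2 and 6 repeat the main fit. In these settings 0 CEP genes were called under TNFalpha or for the difference. The median in cotreated cells, 0.11, was 0.084 to 0.12 with a replicate left out and 0.14 with the feature of largest ratios. CEP295 in cotreated cells was called in 14 of 17 alternatives and CEP57L1 in 8, and the 8 calls in the report kept their sign in all. Over the 8 calls and 17 alternatives each, 51 of 136 lost the call and 85 kept it. Named values that were not called gained a call in 20 of 601, and 0 values called in either setting reversed sign. Values called in neither setting did change sign in places. CEP192 under TNFalpha did so in 5 of 16 alternatives and CEP290 under heteronemin alone in 4 of 17. The differences of CEP72 and CEP85 did so in 4 of 17 each. Settings that left out replicates had fewer samples, and the causes of these changes, the number of arrays included, were not tested. Signal over background was not used here.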
